A study of Mus musculus with 93 samples.

Results

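A/J and C57BL/6J are classical inbred laboratory strains, and the livers compared here came from male mice of both strains on the control diet (CD), 5 A/J and 8 C57BL/6J. All samples labelled with that diet and either strain were taken, which made 13 of the 93 samples of the series. The mice had been bred in house, were held at thermoneutrality (30 °C) from 6 wk of age and received CD (10% of energy from fat, 17% from protein and 73% from carbohydrate) from 7 wk. Per the study's methods they were on the diet for 17 wk, were fasted for 4 h and were killed in the afternoon at 24 wk of age, and the liver was perfused before collection. The other 80 samples were Western diet (WD) mice of these and 5 other strains and CD mice of those 5 strains. They served here in the filter on expression, the scaling and the estimate of the spread of each gene. Bulk mRNA was sequenced, so that fewer cells of a type and less RNA per cell cannot be told apart.

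The liver clears nutrients, hormones and foreign compounds from portal blood and secretes most plasma proteins, and in mice it also secretes the major urinary proteins that carry pheromones. Hepatocytes do most of this work and are flanked by Kupffer cells, sinusoidal endothelial cells, stellate cells and bile duct cells. Inbred strains differ in the sequence of many liver genes, in gene copy number and in intact or broken copies of immune genes. A/J and C57BL/6J have long been compared for this reason, with C57BL/6J as the strain from which the mouse reference genome was made.

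Of 53465 genes in the count table, 19110 were expressed by the filter and tested with limma-voom, and 7345 of them (38.4%) were differentially expressed genes (DEGs) at an adjusted p below 0.05. There were 3840 genes higher in A/J (20.1% of those tested) and 3505 lower (18.3%), and the median log2 fold change (A/J over C57BL/6J) of all genes tested was 0.00. Which direction held more DEGs depended on the scaling and the test, since 52.3% of the DEGs were higher in A/J here but 44.7% with upper-quartile factors, 45.1% with DESeq2 and 47.5% with edgeR. By size the balance differed, since 1018 DEGs were at least 2-fold higher in A/J (5.33%) and 1514 at least 2-fold lower (7.92%), 2532 in all (13.2%). For 1488 genes every A/J mouse was above every C57BL/6J mouse (7.79%) and for 1400 genes every A/J mouse was below (7.33%). Levels are given in CPM, the reads on a gene scaled with TMM to the total of reads on the tested genes.

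The libraries held 48631886 to 49843859 reads on genes. RNA integrity (RIN) was 8.86 ± 0.34 in A/J and 8.53 ± 0.65 in C57BL/6J (mean ± SD), which did not pass a two-sided exact permutation test (p = 0.342). The mice came from different cohorts, with A/J in cohorts 2 and 3 and C57BL/6J in cohorts 1 and 2, so only cohort 2 (2 A/J and 5 C57BL/6J mice) held both strains. Within cohort 2, 3708 genes were DEGs (19.4%, with 10.8% of those tested higher in A/J and 8.6% lower), and 7307 of the 7345 DEGs (99.5%) kept their direction there. The cohort 2 mice are also among those that defined the DEGs, so this agreement in direction was no independent check. The first principal component (48.8% of the variance) separated the strains, with A/J between −72.9 and −66.2 and C57BL/6J between 22.6 and 88.3. On the second (19.0%), C57BL/6J replicate 2 lay at 101.8, whereas the other C57BL/6J mice lay between −38.1 and 7.27. Its median correlation with its own strain was 0.950, against 0.983 to 0.988 for the other 7. Without this mouse, 18.8% of the genes tested were higher in A/J and 16.8% lower. Without C57BL/6J replicates 2, 4 and 6 the shares were 14.6% and 13.2%. Replicate numbers are names only. The Y-linked gene Ddx3y was at 55.3 to 79.8 CPM in all 13 mice, and Xist, the RNA of the silenced X of females, at 0.0365 to 0.756 CPM.

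Genes known to differ between the strains served to check the labels. H2-Ea-ps (chromosome 17:34341959-34344645, GRCm38) encodes the alpha chain of the MHC class II E molecule and is known not to be made in C57BL/6J. It was at 22.1, 30.2, 11.03, 22.2 and 25.2 CPM in the A/J mice and at 0 in 6 of the 8 C57BL/6J mice, with 3 reads over all of that strain. The ratio of the group levels was 3078, with an exact 95% counting interval from 1053. Hc, complement component C5, which A/J is known to lack as a protein, was at 185, 241, 199.7, 227 and 237 CPM in A/J and at 530.0 to 812 CPM (median 727) in C57BL/6J. The groups did not overlap, and the log2 fold change was −1.69 ± 0.11 (SE, adjusted p = 2.08e-23). Dysf, dysferlin, whose A/J allele carries a known insertion, was at 1.20 to 1.62 CPM in A/J and 5.32 to 7.68 CPM (median 6.75) in C57BL/6J (−2.21 ± 0.21 on the log2 scale, adjusted p = 1.07e-15).

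Nnt, the nicotinamide nucleotide transhydrogenase of the inner mitochondrial membrane, which carries a known deletion in C57BL/6J, was 2.71-fold higher in A/J. Its levels were 169.9, 181, 188, 186 and 175 CPM in A/J and 58.0 to 80.9 CPM (median 66.7) in C57BL/6J, with no overlap. Glo1, glyoxalase 1, and its neighbour Btbd9, which lie in a segment known to be duplicated in some strains including A/J, were both higher. Glo1 was at 680 to 783 CPM in A/J against 144 to 378 CPM (log2 fold change 1.43 ± 0.12), and Btbd9 at 26.2 to 31.8 against 12.5 to 15.3 CPM (1.06 ± 0.06). Wdfy1, which binds endosomal phosphoinositides, was at 23.7 to 29.3 CPM in every A/J mouse and at 9.65 to 11.4 CPM in C57BL/6J (1.29 ± 0.06, adjusted p = 4.70e-33). Of the inflammasome sensors of the Naip cluster, Naip1 (−2.05), Naip2 (−2.48) and Naip5 (−0.76) were lower in A/J; within cohort 2 Naip5 did not pass (adjusted p = 0.0850). Apoa2, the second most abundant HDL protein, was higher (0.61 ± 0.12). Ahr, the aryl hydrocarbon receptor, did not pass the test (−0.11 ± 0.16, adjusted p = 0.632), with A/J at 19.2 to 31.4 CPM and C57BL/6J at 19.9 to 43.0 CPM.

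**Figure D1:**
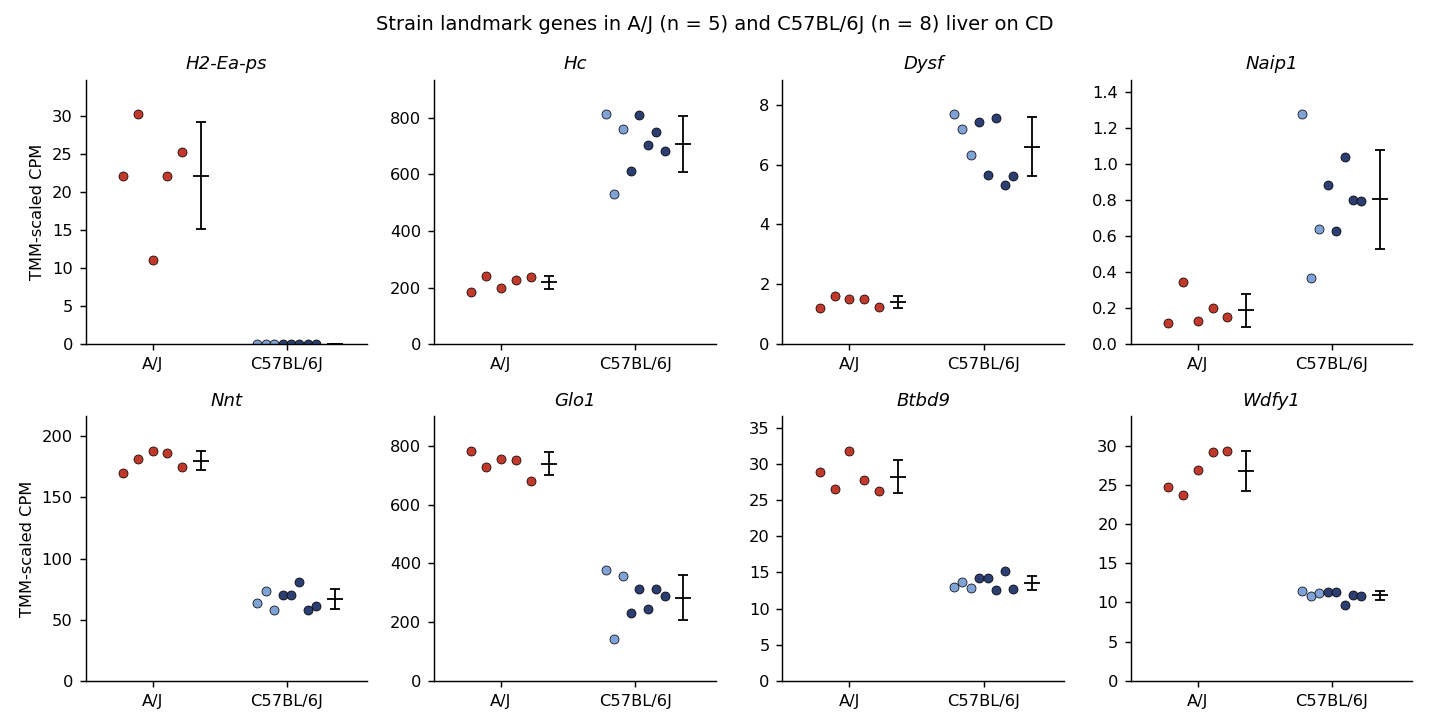
TMM-scaled CPM (linear axes from 0) of 8 strain landmark genes in each mouse; red points are A/J, light and dark blue points are C57BL/6J of cohorts 1 and 2, and the bars beside the points give the mean and SD. The strains did not overlap for any of the 8, with Hc, Dysf and Naip1 lower in A/J and the other 5 higher.

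Among the 10 largest rises and 10 largest falls, several were processed copies of housekeeping genes. A processed pseudogene is an intronless copy of a gene that was written back into the genome, and because the copy is almost identical to the gene, a read can be assigned to either by a single base. The reads were mapped to the C57BL/6J genome. The 4 pairs below are shown since the strain contrast of the gene and of its copy ran in opposite directions. Each line is 30 bases of the coding strand from GENCODE transcripts on GRCm38, and the capital marks the base at which gene and copy differ.
Rpl26, coding bases 162 to 191: agttcaggttgttcgCggacactacaaagg
Gm15772: agttcaggttgttcgTggacactacaaagg
Rpl29, coding bases 57 to 86: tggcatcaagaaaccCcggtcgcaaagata
Gm8210: tggcatcaagaaaccAcggtcgcaaagata
Rps3a1, coding bases 201 to 230: tgaagtgagccttgcTgatctacagaatga
Rps3a3: tgaagtgagccttgcCgatctacagaatga
Gapdh, coding bases 409 to 438: aagggtggagccaaaAgggtcatcatctcc
Gm13394: aagggtggagccaaaCgggtcatcatctcc

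Over the coding sequence the pairs differed at 2 of 435 bases (Rpl26), 3 of 480 (Rpl29), 9 of 792 (Rps3a1) and 1 of 999 (Gapdh). Rpl26, a protein of the large ribosomal subunit (11:68901583-68906989), was at 5.62, 6.27, 6.62, 5.89 and 6.02 CPM in A/J and at 102 to 132 CPM (median 114) in C57BL/6J. Its copy Gm15772 (5:3236431-3236868) was at 68.5 to 75.4 CPM in A/J and 0.707 to 1.64 CPM in C57BL/6J. The log2 fold changes were −4.24 ± 0.08 for the gene and 6.22 ± 0.11 for the copy, so that 92.2% of the reads on the pair lay on the copy in A/J and 0.851% in C57BL/6J. Summed over gene and copy, A/J had 78.5 ± 3.29 CPM and C57BL/6J 116 ± 9.35 CPM.

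The other pairs ran the same way to different degrees. For Rps3a1 (3:86137940-86142702) and Rps3a3 (13:108670603-108671397), which encode or copy a small subunit protein, the copy held 62.7% of the reads in A/J and 0.183% in C57BL/6J, and the sums were 109 and 194.5 CPM. For Rpl29 (9:106429454-106431568) and Gm8210 (1:43189156-43189638) the copy held 36.2% and 0.0241%, and the sum was still lower in A/J at 22.02 ± 1.55 against 134 ± 12.1 CPM. The glycolytic enzyme Gapdh (6:125161715-125166467) and Gm13394 (2:28933610-28934609) summed to 699.9 and 959 CPM, with 9.59% and 0.0186% on the copy. None of the 4 sums overlapped between the strains.

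**Figure D2:**
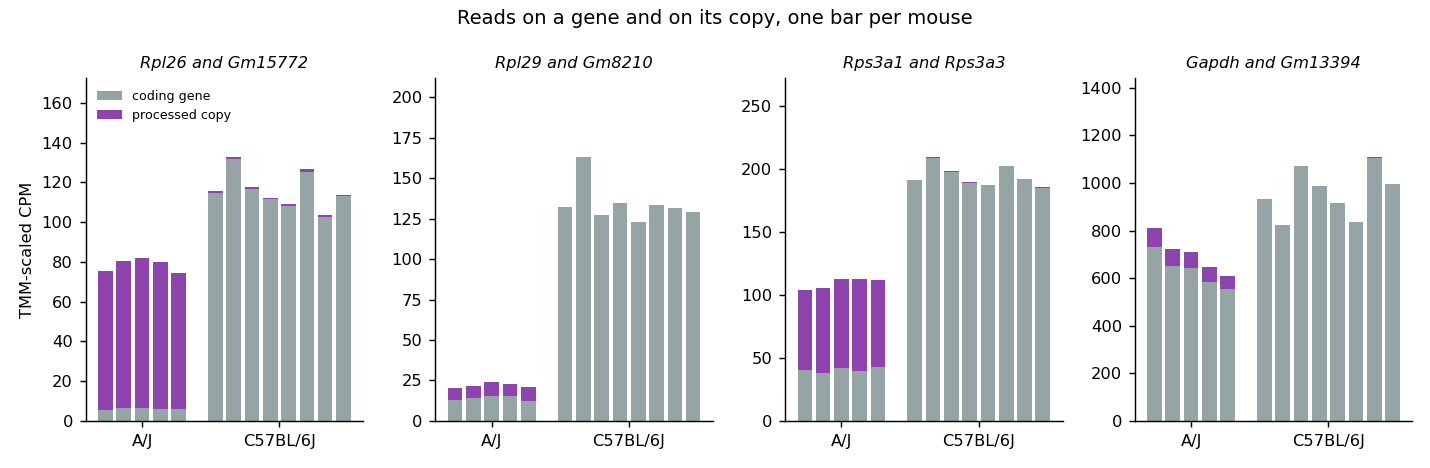
Stacked bars give the TMM-scaled CPM of a coding gene (grey) and of its processed copy (purple) in each of the 5 A/J and 8 C57BL/6J mice. The copies held 92.2%, 36.2%, 62.7% and 9.59% of the pair's reads in A/J from left to right, and under 1% in C57BL/6J.

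Processed pseudogenes as a class leaned to A/J. Of 1129 tested, 158 were at least 2-fold higher in A/J and 57 at least 2-fold lower, whereas of 14902 protein-coding genes 511 were at least 2-fold higher and 1198 lower. A parent gene, sharing at least 20% of the copy's 31-base words, was found for 929 of 1202 processed pseudogenes (transcribed ones included). The 122 copies at least 2-fold higher had 108 distinct parents, of which 52 were lower in A/J (48.1%) and 14 higher. Of the 36 parents of copies at least 2-fold lower, 18 were lower, and of the 472 parents of copies that were not called, 96 (20.3%), which is close to the 20.6% of all protein-coding genes tested. How the mapping to one strain's genome moved these values was not tested.

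The genes of foreign compound metabolism held some of the largest differences. Cytochromes P450 of the Cyp1 and Cyp2 families oxidize drugs, steroids and fatty acids, and of 47 tested 18 were higher in A/J and 6 lower (median log2 fold change 0.35). Cyp2b9 (7:26173411-26210661), a steroid hydroxylase usually seen in female liver, was at 284, 329, 490, 588 and 343 CPM in A/J. It was at 0.147 to 1.20 CPM in 6 C57BL/6J mice, at 26.8 in replicate 6 and at 183 in replicate 2, so the strains did not overlap (log2 fold change 7.92 ± 0.87, adjusted p = 1.45e-12). Its neighbour Cyp2b13 rose too (7.89 ± 1.41) at 1.62 to 25.0 CPM against 0 to 1.98 CPM, ranges that met at their ends, while Cyp2b10, the classical target of the receptor CAR, gave −0.36 ± 0.93 and did not pass. Cyp2c39 was at 280 to 574 CPM in A/J and 1.75 to 6.13 CPM in C57BL/6J (6.93 ± 0.64). Cyp2e1, which oxidizes ethanol and paracetamol, was 7337 to 10220 CPM in A/J and 1563 to 7284 CPM in C57BL/6J (1.09 ± 0.20); within cohort 2 it gave 0.74 and did not pass (adjusted p = 0.0596).

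Cux2, a transcription factor of the female liver pattern, rose (3.77 ± 0.52), and was at 56.8 and 34.6 CPM in 2 A/J mice and 4.46 to 7.69 CPM in the other 3. In the Cyp3a family 3 of 8 were higher and 1 lower. Cyp3a44 was at 9.18 to 27.1 CPM against 0.0393 to 4.79 CPM, and Cyp3a25 at 971 to 1340 against 261 to 676 CPM. Cyp3a13 was lower in A/J, at 33.0 to 46.9 CPM against 137 to 239 CPM (−2.14 ± 0.15).

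The Cyp4 family of fatty acid hydroxylases was mixed, with 3 of 16 higher and 4 lower; without C57BL/6J replicate 2 the counts were 1 and 7. Cyp4a32 was at 234 to 554 CPM in A/J and 10.4 to 98.4 CPM in C57BL/6J, while Cyp4a12b was at 0.804 to 3.44 against 5.73 to 56.6 CPM. Cyp4a12a and Cyp4a12b are near-identical neighbours, and their summed levels, 169 ± 55.8 and 162 ± 75.2 CPM, overlapped.

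Conjugating enzymes, which attach glutathione, glucuronic acid or sulfate, differed by member. Of 24 glutathione transferases 4 were higher and 9 lower. Gstm3 was at 17.5 to 45.8 CPM in A/J and at 53.5 to 634 CPM (median 78.1) in C57BL/6J, where replicates 2, 4 and 6 had 634, 512 and 412 CPM and the other 5 were under 85. Gsta1 was near 0 in A/J (0 to 0.0915 CPM) and at 0.506 to 23.4 CPM in C57BL/6J, with the same 3 mice highest, and did not pass within cohort 2 (adjusted p = 0.05003). Of 16 UDP-glucuronosyltransferases 5 were higher and 6 lower, led by Ugt1a9 at 179 to 202 CPM against 15.4 to 43.2 CPM (3.13 ± 0.18). The transcripts of the Ugt1a locus share their last exons, so their counts depend on how shared reads were assigned. Of 17 carboxylesterases 8 were higher and 1 lower. Ces1b was at 446 to 643 against 47.9 to 95.4 CPM (3.07 ± 0.11, adjusted p = 3.47e-40), and Ces2c, the member that was lower, at 1.67 to 2.73 against 12.7 to 27.5 CPM. Of 15 sulfotransferases 3 were higher and 1 lower. Sult2a8 ranged from 6.64 CPM (replicate 2) to 624 CPM in C57BL/6J, and its call (1.42 ± 0.45) was lost without that mouse (adjusted p = 0.0569). Of 23 organic anion and cation carriers 9 were higher and 3 lower, but 2 and 3 within cohort 2. Slc22a7 was at 23.2 to 49.96 against 3.16 to 14.6 CPM.

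NRF2 is the transcription factor that raises antioxidant and detoxifying genes, and 24 of its 34 listed targets were lower in A/J and 2 higher, with a median log2 fold change of −0.80. Without C57BL/6J replicate 2 the count was 23 lower and 1 higher, without replicates 2, 4 and 6 it was 19 and 1, and within cohort 2 it was 15 and 0. Gstm3 and Gsta1 are members of that list. Taken over the list, the summed level was 3815 to 5045 CPM in A/J and 6336 to 10310 CPM in C57BL/6J, so the groups did not overlap.

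The major urinary proteins are secreted lipocalins that bind volatile pheromones. Mup20, also called darcin, was at 42.1, 48.6, 28.8, 29.9 and 42.5 CPM in A/J and at 4154 to 7154 CPM in 7 C57BL/6J mice, with replicate 2 at 209. It was 101-fold lower in A/J (log2 fold change −6.65 ± 0.38, adjusted p = 1.94e-27). Mup17 was in the opposite direction, at 12.1 to 22.4 CPM against 0.0168 to 2.08 CPM (5.81 ± 0.93), as was Mup12 (5.43 ± 0.67). Of 39 Mup genes and pseudogenes tested 8 were higher and 4 lower, and 8 and 10 without replicate 2. Their coding sequences are near copies of one another, Mup12 sharing 88.3% of its 31-base words with Mup1, so reads may have been split among them.

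Among other secreted proteins, coagulation genes had the highest share of calls higher in A/J. Albumin (Alb) was at 154100 to 184300 CPM in A/J and 88960 to 107500 CPM in C57BL/6J, with no overlap (0.78 ± 0.10, adjusted p = 3.20e-10). Of 26 coagulation genes 18 were higher and 4 lower (median 0.53), and the counts were 18 and 4 within cohort 2 as well. Plg, plasminogen, was at 3653 to 3923 against 1393 to 2419 CPM (0.91 ± 0.09). F11, coagulation factor XI, was at 109 to 138 against 36.4 to 64.3 CPM, and Hgfac, the activator of hepatocyte growth factor, at 437 to 538 against 149 to 321 CPM. Slc22a3, which overlaps Plg on the opposite strand, was lower (−1.29 ± 0.29). Of 22 clade A serpins 9 were higher and 1 lower (median 0.33). Without C57BL/6J replicates 2, 4 and 6 the counts were 7 and 1 (median −0.11). Serpina6, the corticosteroid-binding globulin, was at 481 to 786 against 128 to 334 CPM (1.48 ± 0.19).

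Complement is the cascade of plasma proteins that tags and lyses microbes, and 17 of 35 genes were higher and 7 lower (median 0.14). C4a, the sex-limited protein, a near copy of the complement gene C4b, was at 394, 396, 322, 341 and 425 CPM in A/J and 2.24 to 49.0 CPM (median 11.6) in C57BL/6J (5.17 ± 0.35). C4b itself rose less (0.68 ± 0.15), and the sum of both was 2065 ± 120 against 1085 ± 206 CPM. The second copies of the C1 protease genes had few reads in C57BL/6J. C1s2 was at 52.8 to 55.4 CPM against 0.0393 to 0.138 CPM (9.21 ± 0.24) and C1rb at 12.99 to 14.4 against 0.0412 to 0.110 CPM (7.24 ± 0.35), while C1s1 did not pass (0.14 ± 0.07, adjusted p = 0.112). Without C57BL/6J replicates 2, 4 and 6 the complement counts were 11 and 5. Of 25 acute phase genes 6 were higher and 0 lower. Apcs, serum amyloid P, was at 391 to 457 against 66.7 to 209 CPM (2.18 ± 0.35), and Saa4 at 245.8 to 383 against 80.3 to 167 CPM. Pigr, the receptor that carries IgA into bile, was at 1987 to 2116 against 499.6 to 1528 CPM.

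Apolipoproteins and the genes of VLDL assembly, which package lipid for export, followed the same direction, with 14 of 28 higher and 2 lower (median 0.35; 13 and 0 within cohort 2). Apoh was at 2636 to 2967 against 1264 to 2156 CPM and Apon at 435 to 554 against 189 to 408 CPM. Apoa4, which rises with hepatic fat, was one of those lower (−1.63 ± 0.36), at 50.6 to 96.3 against 89.6 to 514 CPM, and did not pass within cohort 2 (adjusted p = 0.0678).

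Genes of MHC class I and II present peptides to T cells, and of 31 tested 3 were higher and 9 lower. H2-T22 (−2.42 ± 0.12) and H2-T10 (3.16 ± 0.15), nonclassical class I genes that share 47.6% of their 31-base words, moved in opposite directions. Their sum was 44.4 ± 3.47 CPM in A/J and 82.1 ± 14.8 CPM in C57BL/6J. Of 53 interferon response genes 18 were lower and 4 higher (median −0.30), and 14 and 1 within cohort 2. Without C57BL/6J replicates 2, 4 and 6 the counts were 9 and 3 (median −0.14), where 13.2% of all genes tested were lower and 14.6% higher. Ifi44l had 99 to 159 reads in each A/J mouse and none in any of the 8 C57BL/6J mice, at least 379.5-fold higher in A/J against a floor of 3 reads over the group. Ifi204, a cytosolic DNA sensor, was lower, at 4.30 to 6.21 against 10.6 to 20.9 CPM (−1.40 ± 0.15), as was Ifi27l2b (−3.16 ± 0.52). Gbp4, a guanylate-binding protein, was higher (1.41 ± 0.23), with C57BL/6J replicate 1 inside the A/J range. All 4 called genes of 7 in the Schlafen family, which interferons induce, were lower, Slfn8 by −2.73 and Slfn9 by −1.24 on the log2 scale.

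The lipid lists differed in direction. Cholesterol biosynthesis, run by SREBP2, had 8 of 20 genes lower and 1 higher (median −0.39), and 2 and 0 within cohort 2. Cyp51, lanosterol demethylase, was at 60.99 to 117 against 141 to 275 CPM (−1.21 ± 0.22), and its call held within cohort 2 (adjusted p = 0.00680), whereas Mvd and Fdps did not pass there. Of 25 genes of sterol regulation and uptake 9 were higher and 4 lower. Abcg8, which pumps sterols into bile, was at 159.8 to 183 against 41.7 to 131 CPM (1.04 ± 0.16).

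Pparg, the adipogenic nuclear receptor, was at 1.57, 2.06, 3.91, 3.27 and 2.80 CPM in A/J and at 5.46 to 16.4 CPM (median 10.6) in C57BL/6J, with no overlap (−1.93 ± 0.38, adjusted p = 2.14e-05). Of 29 genes of its lipid droplet list 9 were lower and 3 higher, and 3 and 2 within cohort 2. Cidec, which enlarges lipid droplets, was at 3.11 to 6.02 against 6.03 to 68.8 CPM (−2.003 ± 0.66, adjusted p = 0.0112), and did not pass within cohort 2 (adjusted p = 0.111). Of 32 fatty acid synthesis genes 6 were higher and 5 lower, and the number lower was between 3 and 7 with single mice left out. Within cohort 2 the counts were 3 and 0, and without replicates 2, 4 and 6 they were 2 and 7. Dgat2, which closes triglyceride synthesis, was at 631 to 801 against 230.0 to 508 CPM (1.01 ± 0.10). Thrsp was higher (1.24 ± 0.42), but did not pass without C57BL/6J replicate 2 (adjusted p = 0.0612).

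Of 53 genes of fatty acid oxidation and ketogenesis 17 were higher and 7 lower (median 0.25), and 8 and 2 within cohort 2. Without C57BL/6J replicate 2 the counts were 13 and 7 (median 0.07), and without replicates 2, 4 and 6 they were 12 and 7 (median 0.01). Acad10, an acyl-CoA dehydrogenase, was at 61.8 to 69.7 against 18.0 to 27.9 CPM (1.55 ± 0.09, adjusted p = 3.51e-26). Pdk4, which blocks pyruvate entry in fasting, was lower (−2.91 ± 0.94, adjusted p = 0.0101), and so was Fgf21, the fasting hormone of liver (−1.58 ± 0.39); neither passed within cohort 2 (adjusted p = 0.214 and 0.373). Of 30 bile acid genes 10 were higher and 8 lower, but 3 and 6 within cohort 2 and 5 and 6 without replicates 2, 4 and 6. Cyp39a1, oxysterol 7-alpha-hydroxylase, was at 5.31 to 16.4 against 49.7 to 95.4 CPM (−3.08 ± 0.36).

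Among nuclear genes of the respiratory chain the called ones were mostly higher in A/J, by small amounts. Of the nuclear genes of complex I 18 of 37 were higher and 2 lower, of complex II 3 of 4 were higher, of complex III 8 of 9, of complex IV 7 of 17 with 1 lower, and of the ATP synthase 8 of 17. The list medians lay between 0.11 and 0.25. Uqcr10 of complex III was at 90.1 to 102 against 62.2 to 74.8 CPM (0.52 ± 0.08), and Atp5f1 at 271 to 310 against 201 to 243 CPM (0.38 ± 0.05, adjusted p = 1.38e-09). Cox7a2l, known as the supercomplex assembly factor SCAF1, ran the other way (−0.35 ± 0.06), at 54.0 to 60.01 against 59.3 to 86.6 CPM. Without replicates 2, 4 and 6 the counts for complexes I to V were 10, 0, 3, 4 and 5 higher and 3, 1, 0, 3 and 0 lower. Over all genes tested 14.6% were higher in that setting and 13.2% lower. The complex II median stayed positive there (0.09 against 0.20 over all mice). Within cohort 2 the counts were 8, 1, 4, 5 and 4 higher and 1, 0, 0, 1 and 0 lower. With upper-quartile factors they were 12, 2, 6, 4 and 7 higher and 3, 0, 0, 1 and 0 lower. Of all 19110 genes tested 3249 were higher with that scaling and 4025 lower. The 13 mitochondrially encoded genes held 1 higher and 2 lower. As a share of all reads, without TMM scaling, mitochondrial genes held 5.66 ± 0.29% in A/J and 6.48 ± 0.70% in C57BL/6J (two-sided exact permutation test, p = 0.0171, adjusted p = 0.103 over 6 shares). The TMM-scaled sum of the 13 genes was 71150 to 81600 CPM in A/J and 62450 to 89580 CPM in C57BL/6J, so the groups overlapped.

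Amino acid breakdown and the urea cycle remove nitrogen, and 21 of 46 genes were higher and 2 lower (median 0.19), with 11 and 1 within cohort 2. Bckdhb, of branched-chain keto acid oxidation, was at 105 to 122 against 44.8 to 75.0 CPM, and Ftcd, of histidine breakdown, at 459 to 576 against 217 to 347 CPM. Csad, which makes taurine from cysteine, was among the methionine and cysteine genes (11 of 31 higher, 9 lower). It was at 26.0, 23.8, 48.9, 36.6 and 33.0 CPM in A/J and 159 to 440 CPM (median 356) in C57BL/6J, 9.77-fold lower (adjusted p = 1.03e-19). Nnmt, which methylates nicotinamide, was at 0.345 to 1.19 against 8.33 to 81.7 CPM (−4.71 ± 1.05).

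The integrated stress response, in which ATF4 raises amino acid synthesis genes, had 15 of 26 genes lower and 1 higher (median −0.53), and 7 and 1 within cohort 2. Asns, asparagine synthetase, was at 0.178 to 0.561 against 1.91 to 16.4 CPM (−3.84 ± 0.73), and Pck2, mitochondrial PEPCK, at 1.90 to 2.76 against 6.89 to 16.4 CPM (−2.06 ± 0.21). Among 29 endoplasmic reticulum chaperones and unfolded protein response genes 5 were higher and 1 lower, Pdia6 at 451 to 660 against 225 to 326 CPM. In heme synthesis Alad was higher, at 248 to 291 against 77.8 to 116 CPM (1.54 ± 0.10), and Alas1, the rate-limiting step, lower (−1.46 ± 0.47, adjusted p = 0.0103). Alas1 was at 49.3 CPM in A/J replicate 1 and 131 to 155 CPM in the other 4. In C57BL/6J it was at 122 to 628 CPM, so the groups overlapped.

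Of 28 genes of the growth hormone and IGF axis 12 were higher and 1 lower (median 0.31). Without C57BL/6J replicates 2, 4 and 6 the counts were 8 and 1 (median 0.07). Prlr, the prolactin receptor, was at 189 to 243 against 32.1 to 106 CPM (1.62 ± 0.37). Hsd3b5, a male-biased steroid dehydrogenase, was higher (2.39 ± 0.83, adjusted p = 0.0166), but C57BL/6J replicate 2 was at 0.118 CPM and without it the call was lost (adjusted p = 0.137). Car3, carbonic anhydrase 3, was at 4072 to 5633 against 437 to 1676 CPM (2.18 ± 0.26). Of 42 nuclear receptors and liver transcription factors 13 were higher and 3 lower.

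Of 21 circadian clock genes 12 were higher and 1 lower, with a median of 0.81. The counts were the same with cohort as a term (median 0.77), and within cohort 2 they were 5 and 0 (median 0.54). Dbp, an output gene of the clock, was at 51.5 to 99.5 CPM in A/J, at 5.42, 0.823 and 4.93 CPM in C57BL/6J of cohort 1 and at 16.6 to 104 CPM in C57BL/6J of cohort 2. Its log2 fold change was 2.32 ± 0.46 over all mice and 0.33 within cohort 2 (adjusted p = 0.646). Per3 (2.15 and 0.54) and Ciart (2.44 and 1.06) did not pass within cohort 2 either. Cohort and strain cannot be told apart for the A/J mice of cohort 3 and the C57BL/6J mice of cohort 1.

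**Figure D3:**
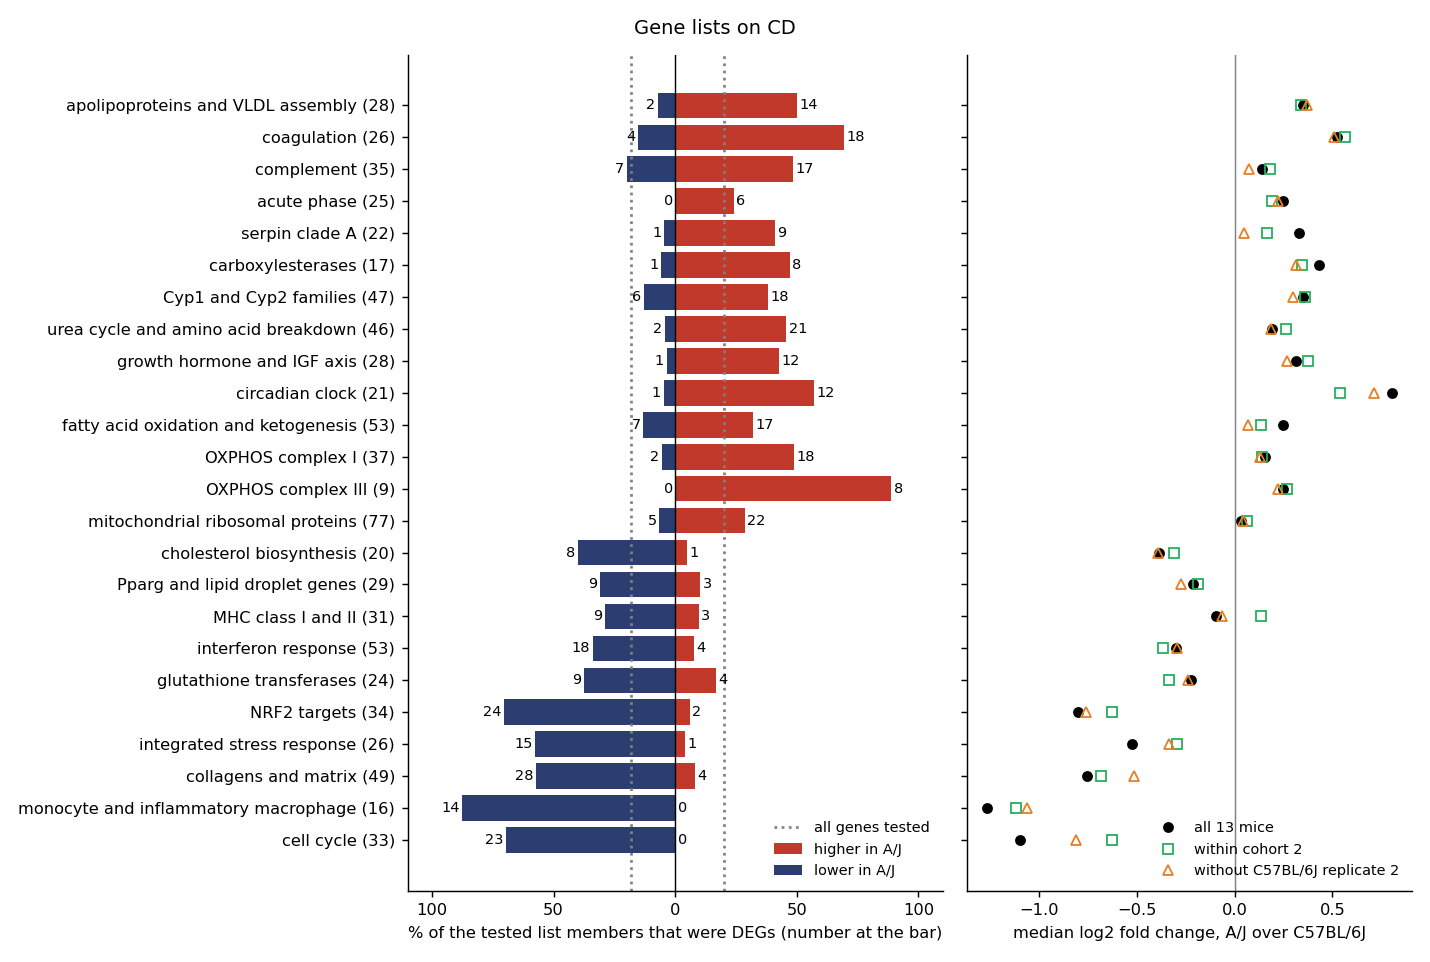
Left, the percentage of each list's tested genes (number in brackets) that were higher (red) or lower (blue) in A/J, with the number of genes at the bar and the shares over all genes tested as dotted lines (20.1% and 18.3%). Right, the median log2 fold change over all 13 mice, within cohort 2 and without C57BL/6J replicate 2; cell cycle was −1.10, −0.63 and −0.81 in that order.

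Among genes of proliferation, matrix and inflammatory cells more were called lower in A/J than higher, and C57BL/6J replicates 2, 4 and 6 were high for several of them. Of 33 cell cycle genes 23 were lower and 0 higher (median −1.10), 19 without replicate 2, 9 without replicates 2, 4 and 6, and 7 within cohort 2. Cdk1, the mitotic kinase, was at 0.208 to 0.801 CPM in A/J and 1.12 to 15.3 CPM (median 1.605) in C57BL/6J, with replicates 2, 4 and 6 at 15.3, 5.04 and 3.54. The groups did not overlap. Rrm2, which makes deoxynucleotides, was at 1.01 to 1.74 against 5.87 to 16.7 CPM (−2.63 ± 0.25) and remained a DEG without those 3 mice (adjusted p = 1.81e-14). Ccnd1, cyclin D1, was at 13.3 to 29.5 against 46.9 to 176 CPM (−2.06 ± 0.28).

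Of 49 collagen and matrix genes 28 were lower and 4 higher (median −0.76), 20 and 4 without replicate 2, 12 and 5 without replicates 2, 4 and 6, and 10 and 4 within cohort 2. The summed level of the list was 4406 to 4906 CPM in A/J and 3441 to 5140 CPM in C57BL/6J. Replicate 2 was at 5140 and the next at 3958, so by sum every A/J mouse was above all C57BL/6J mice but replicate 2. Over all genes tested the share lower was 16.8% without replicate 2 and 13.2% without the 3 mice. Col1a1 was at 2.11 to 2.77 against 6.50 to 89.4 CPM (−2.47 ± 0.68); it did not pass without those 3 mice (adjusted p = 0.0540). Loxl1, which crosslinks elastin, did pass there (−2.54 ± 0.50 over all mice, adjusted p = 0.000733 without them). Of 38 chemokines and cytokines 10 were lower and 5 higher. By the summed level of the list A/J was higher, at 621.5 to 769.3 against 454.7 to 618.9 CPM, with no overlap. Cxcl1, a neutrophil attractant, was higher at 19.5 to 48.6 against 2.95 to 20.9 CPM (1.997 ± 0.48). Ccl27a was at 0.485 to 1.35 against 3.96 to 8.78 CPM (−3.04 ± 0.21), and shares 37.7% of its 31-base words with the predicted gene Gm20878.

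Of 16 monocyte and inflammatory macrophage markers 14 were lower and 0 higher (median −1.27), 10 without replicate 2, 1 without replicates 2, 4 and 6, and 1 within cohort 2. Their summed level was 93.9 to 118 CPM in A/J and 146 to 1060 CPM in C57BL/6J, with replicate 2 at 1060 and the next at 408, so the groups did not overlap. Spp1, osteopontin, was at 21.7 to 30.1 against 32.7 to 369 CPM, and its call was lost without replicates 2, 4 and 6 (adjusted p = 0.0730). Gpnmb, a marker of lipid-laden macrophages, was at 178 CPM in replicate 2 and at 0.591 to 7.88 CPM in the other C57BL/6J mice, and did not pass (adjusted p = 0.0587). Mmp12, macrophage elastase, was at 68.2, 21.0 and 6.00 CPM in replicates 2, 4 and 6 and at 1.93 CPM or less in the other 5, and its call (−2.28 ± 0.94, adjusted p = 0.0460) was lost without replicate 2 (adjusted p = 0.133).

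**Figure D4:**
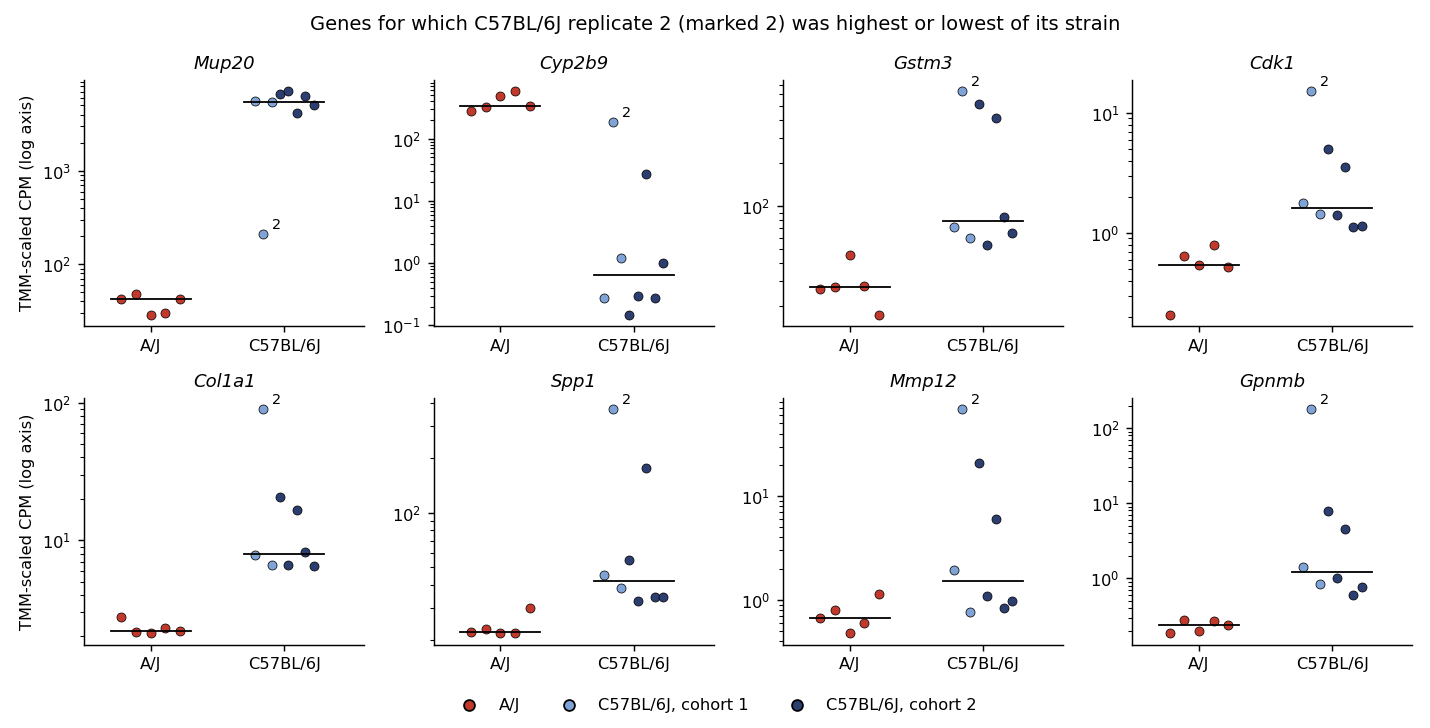
TMM-scaled CPM on log axes of 8 genes in each A/J (red) and C57BL/6J mouse (light blue cohort 1, dark blue cohort 2), with the median as a line and C57BL/6J replicate 2 marked 2. That mouse was lowest of its strain for Mup20 (209 CPM) and highest for the other 7 genes, for example Gpnmb at 178 CPM.

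The markers of other cells gave smaller counts. Of 16 Kupffer cell markers 5 were lower and 1 higher, of 16 endothelial markers 5 and 1, of 15 stellate cell markers 7 and 1, of 12 bile duct markers 4 and 1, of 11 NK cell markers 5 and 1, and of 14 B and plasma cell markers 4 and 0. With single mice left out the number lower was between 2 and 7 for Kupffer cells, 2 and 7 for NK cells, 1 and 4 for B and plasma cells and 3 and 5 for endothelial cells, and A/J replicate 5 was among the mice that moved all 4. Within cohort 2 the number lower was 1 for Kupffer, endothelial and NK cells, 2 for stellate cells and 0 for bile duct cells and for B and plasma cells, and without replicates 2, 4 and 6 it was again 0 for both of these. Of 14 T cell markers 0 passed in limma-voom, edgeR or DESeq2, and 2 had an unadjusted limma-voom p below 0.05. Marco, a Kupffer cell scavenger receptor, was at 1.97 to 4.83 against 5.97 to 62.5 CPM (−2.10 ± 0.55), and did not pass within cohort 2 (adjusted p = 0.0579). Of 11 hepatocyte markers 8 were higher and 0 lower, 6 and 0 within cohort 2, and 4 and 0 without replicates 2, 4 and 6. Their summed level was 204000 to 239700 CPM in A/J and 125600 to 146100 CPM in C57BL/6J, and Alb alone made up most of it. Cdh1, E-cadherin of periportal hepatocytes and bile ducts, was lower at 10.2 to 16.3 against 32.0 to 135 CPM (−2.15 ± 0.29). The part of these cells in the counts of the other lists was not tested. Pancreatic acinar markers summed to 20.5 to 432 CPM in A/J (median 24.1) and 4.55 to 7.78 CPM in C57BL/6J, with 4 of 11 at 0 throughout C57BL/6J. Cela1 was the 1 member of 10 tested that passed (2.23 ± 0.47), at 20.2 to 24.1 CPM in 4 A/J mice, 48.3 CPM in replicate 5 and 4.23 to 7.42 CPM in C57BL/6J. By itself Cela1 came close to the A/J median and the C57BL/6J range of the sum, but not to the highest A/J sum.

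A stricter rule on reads, at most 3 in every mouse of 1 strain and at least 30 in every mouse of the other, found 17 genes near 0 in A/J and 19 near 0 in C57BL/6J. Of the former 11 were protein-coding and of the latter 5. Olfr1033 and its neighbour Olfr1034 on chromosome 2, annotated as olfactory receptors, had 1 and 0 reads over the 5 A/J mice and 262 to 1087 and 140 to 618 reads in each C57BL/6J mouse. Olfr1034 was at least 330.5-fold lower in A/J. Trim12a and Trim5 on chromosome 7, of the retrovirus-restricting TRIM5 group, had 0 to 3 reads per A/J mouse against 388 to 510 and 102 to 157. Cebpe, a granulocyte transcription factor, had at most 1 read per A/J mouse against 213 to 379. The alpha globin copy Hba-a2 had at most 2 reads against 99 to 675, while the sum of Hba-a1 and Hba-a2 was 22.2 ± 24.8 and 22.3 ± 16.1 CPM in A/J and C57BL/6J.

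The DEGs were spread over all chromosomes, from 34.2% of the tested genes on X to 43.6% on chromosome 17, which carries the MHC. Runs of neighbouring DEGs reached 17 genes on chromosome 12:28649602-31473917 (Rnaseh1 to Slc26a3, 9 higher and 8 lower). On chromosome 1:173566283-174031810 the 11 interferon-inducible Ifi200 genes from Ifi213 to Ifi205 were all DEGs, 10 lower, with Ifi202b the exception. Ifi202b was at 2.65 to 4.23 CPM in A/J and 0 to 0.0730 CPM in C57BL/6J (7.70 ± 0.50). On chromosome 7:26061497-26821205 all 10 genes from Cyp2b13 to Cyp2g1 were higher, pseudogenes among them.

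Placed among the 7 strains on CD by group means, C57BL/6J alone lay outside the range of the other strains for 2831 of the 7345 DEGs (38.5%) and A/J alone for 1517 (20.7%). Both lay outside for 418 (5.69%) and neither for 2579 (35.1%). Over all genes tested the shares were 26.9%, 16.7%, 2.38% and 54.0%.

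The strain contrast was also taken between 6 A/J and 8 C57BL/6J mice on WD. These entered the CD contrast only through the shared filter, scaling and estimate of the spread. There 8493 genes were DEGs (44.4%). Of the 7345 CD DEGs 5536 were DEGs on WD (75.4% of the CD and 65.2% of the WD DEGs), 5520 in the same direction and 16 in the opposite direction. The difference between the contrasts was itself tested, and 125 genes (0.654%) passed. Of these 72 were closer together on WD and 53 further apart. Without C57BL/6J replicate 2, 228 genes passed, 122 of them among the 125.

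Mup17 had the smallest adjusted p of that test, and was 5.81 higher on CD on the log2 scale and −1.61 on WD, where A/J was at 8.27 ± 2.62 and C57BL/6J at 41.6 ± 43.9 CPM (difference −7.41 ± 1.02, adjusted p = 3.76e-06). Mup12 (5.43 and −0.20), C4a (5.17 and 2.46), Sulf2, an extracellular sulfatase (2.53 and 0.61), and Epb41l1, a cytoskeletal protein (−2.41 and −0.60), were also closer on WD. Rab27a, a vesicle GTPase, was alike on CD (3.33 ± 0.68 and 3.03 ± 0.44 CPM) but higher in A/J on WD, at 11.1 ± 1.98 against 3.73 ± 0.47 CPM (log2 fold change 1.56). Cidea, a lipid droplet gene of fatty liver, was at or under 3.04 CPM in all 13 mice on CD and averaged 0.0694 against 18.0 CPM on WD. Cyclin D1 (Ccnd1) differed on CD (−2.06) and not detectably on WD (−0.15, adjusted p = 0.670), and the difference between the contrasts passed (1.91 ± 0.39, adjusted p = 0.00383). Ugt1a9 was further apart on WD (4.45 against 3.13). These genes all passed without replicate 2 as well.

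**Figure D5:**
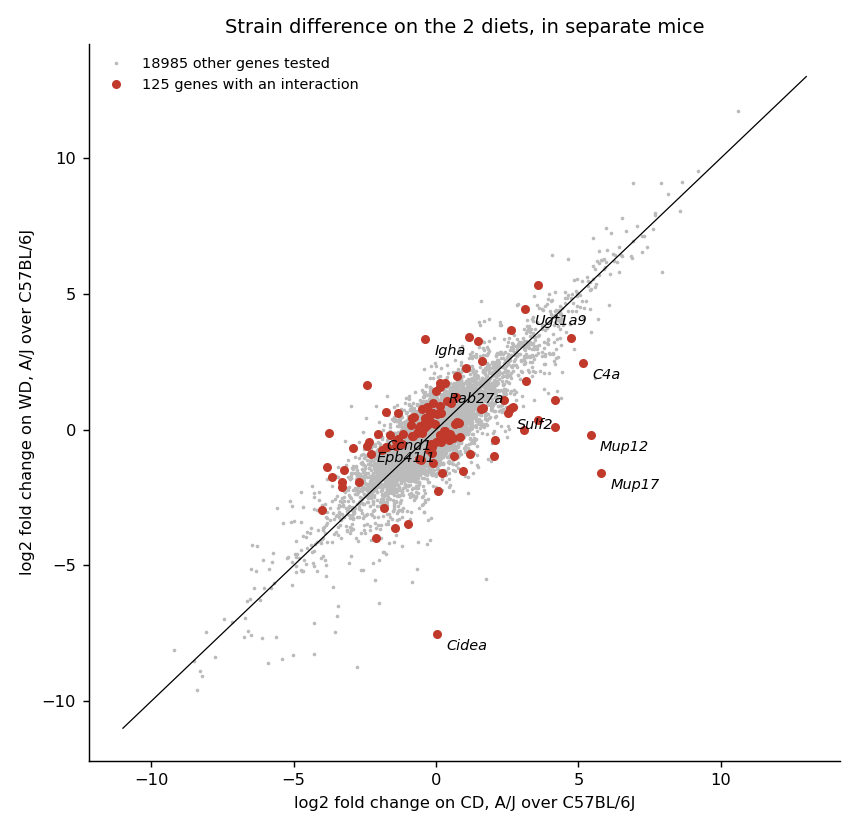
Log2 fold change of A/J over C57BL/6J on CD (x axis) and on WD (y axis) for the 19110 genes tested, with the line of equal values; red points are the 125 genes whose contrasts differed in the interaction test. Mup17 and Mup12 lie far right of the line and Cidea far below it.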

How the data were processed

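The authors sequenced liver mRNA of single male mice on a BGISEQ-500 and mapped it with STAR (2.7.1a and GRCm38/mm10 in the submitters' processing notes). The deposited values are raw counts of reads per gene for 93 samples; the annotation release and strand setting are not given in the sources used here. Lines for reads not mapped (1.66 to 2.60% of reads), mapped to several places (8.03 to 9.75%), outside genes (4.22 to 5.28%) or ambiguous (4.66 to 5.54%) stayed out of library sizes. Symbols and positions came from GENCODE on GRCm38, which held 53360 of the 53465 gene IDs.

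Counts were filtered (edgeR 4.0.16, filterByExpr, minimum count 10), scaled by TMM and tested with limma 3.58.1 (voom, R 4.3.3) over all mice with a mean for each of 14 strain and diet groups. Adjusted p-values are limma-voom's with Benjamini–Hochberg over the 19110 genes tested unless stated, and errors of log2 fold changes are SE. Read intervals and the floor of 3 reads over a group cover counting error only. DESeq2 1.42.0, edgeR's quasi-likelihood test, other scalings, filters and sets of mice were alternatives. Code was tested on simulated data. The labels name no litters, so p-values measure the spread between mice within groups. That spread was estimated over all 93 mice, not over the 13 compared alone.

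The comparison, the gene lists and the rule for named genes were chosen with earlier results of these data known. The rule took the 10 largest rises and falls among DEGs without overlap and with a mean log2 CPM (prior count 2) of at least 1 in the higher group, up to 3 DEGs of each list, all strain landmarks and the 5 smallest adjusted p of the interaction. Named after their values were seen were the partners of near-identical genes, genes in runs of neighbours or near 0 in one strain, Gpnmb, Cidea and Ccnd1. Of 121 genes described, 35 share at least 20% of their 31-base words with another gene and 28 overlap a gene on the opposite strand.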

Additional observations from a re-analysis of the deposited data

Results flagged for a closer look

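A mouse was marked where its gap to the nearest mouse of its strain exceeded Dixon's 95% limit, on log2 CPM for genes. For genes 242 groups of values were examined, and RIN and the first and second principal components were examined besides. That marked 36 values, among them the RIN of C57BL/6J replicate 5 and the second component of replicate 2. Chance alone marks about 1 group in 20. Of the values marked, 17 were in C57BL/6J replicate 2. Besides its position on the second principal component (101.8), this mouse was low for Mup20 (209 CPM), Sult2a8 (6.64 CPM), Cyp4a12a (5.78 CPM), Cyp4a12b (5.73 CPM), Cyp4a32 (10.4 CPM) and C4b (653 CPM). It was high for Gpnmb (178 CPM), Col1a1 (89.4 CPM), Loxl1 (16.6 CPM), Rpl29 (163 CPM), Cyp2b10 (11.2 CPM), Cyp2b13 (1.98 CPM), Cyp3a44 (4.79 CPM), Cidea (3.04 CPM), Olfr1033 (18.3 CPM) and Olfr1034 (10.4 CPM).

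Other C57BL/6J mice were marked for 1 value each or a few. Replicate 6 was high for Ifi202b (0.0730 CPM) and low for Wdfy1 (9.65 CPM), replicate 1 was high for Gbp4 (21.7 CPM), replicate 3 was low for C1rb (0.0412 CPM), replicate 4 was low for Prlr (32.1 CPM) and replicate 7 was low for Fgf21 (13.9 CPM). The RIN of replicate 5 was 7.

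In A/J, replicate 1 was low for Alas1 (49.3 CPM), Ciart (2.89 CPM) and Ahr (19.2 CPM) and high for Acad10 (69.7 CPM). Replicate 2 was high for F11 (138 CPM) and Cidec (6.02 CPM), and replicate 3 was low for Ccnd1 (13.3 CPM). Replicate 4 was low for C1rb (12.99 CPM) and carried the single Olfr1033 read (0.0222 CPM). Replicate 5 was low for Abcg8 (159.8 CPM) and high for Spp1 (30.1 CPM) and Cela1 (48.3 CPM).

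The strain difference itself differed between the diets in the limma-voom interaction test for 10 of the genes described. The difference on WD minus that on CD, on the log2 scale, was −7.41 for Mup17, −5.63 for Mup12, −2.71 for C4a, −1.92 for Sulf2 and −7.58 for Cidea, and 1.43 for Rab27a, 1.81 for Epb41l1, 1.91 for Ccnd1, 1.32 for Ugt1a9 and 1.36 for Csad.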

How the results depend on the processing

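Of the 113 DEGs described, 89 kept their direction and their call under every alternative that tested them, and none reversed; within cohort 2, 19 lost their call, and without C57BL/6J replicate 2, 4 did. The CD counts moved by over 1.5 times within cohort 2 (3708 DEGs, 2064 higher and 1644 lower, 1659 at least 2-fold), without a filter on low counts (5806 higher), with the 13 CD mice alone (2240 lower of 16129 genes tested) and with at least 10 counts in every mouse (764 at least 2-fold of 12181). With the 13 CD mice alone, DEGs numbered 4949 of the 16129 genes tested, and with single mice left out 6580 to 7630. The interaction gave 286 genes with DESeq2, 203 with cohort as a term (112 shared with the 125), 625 with sample quality weights and, chosen after seeing the data, 228 without C57BL/6J replicate 2 and 304 without replicates 2, 4 and 6 (98 shared). The cause was not tested. Genes near 0 in A/J numbered 11 at no more than 10 against at least 100 reads. The mitochondrial read share differed by −0.938 to −0.653 percentage points with single mice left out, and passed without A/J replicate 4 (adjusted p = 0.0242, exact permutation test).

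No paired analysis was possible because the labels give no replicate numbers that the strains share. Of these strains on CD, cohort 1 held C57BL/6J alone and cohort 3 A/J alone. Depth was nearly equal between libraries, and genes under the filter on low counts were not tested.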

Other observations

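Counts for other lists are given beside 20.1% higher and 18.3% lower over all genes tested. Of 86 cytosolic ribosomal protein genes 16 were lower in A/J and 7 higher (median log2 fold change −0.03), with Rpl26, Rpl29 and Rps3a1 among those lower; without A/J replicate 3 the number higher was 3. Of 77 mitochondrial ribosomal protein genes 22 were higher and 5 lower (median 0.03), and 17 to 22 and 3 to 6 with single mice left out. With upper-quartile factors the counts were 15 and 8 (median −0.01), and within cohort 2 they were 8 and 2. Of 333 zinc finger genes named Zfp, many of which silence transposons, 48 were higher and 70 lower, and of 41 genes of gluconeogenesis and glycogen 10 were higher and 8 lower, but 7 and 9 without C57BL/6J replicates 2, 4 and 6. Of 30 genes of mitochondrial redox and NAD(P)H balance, Nnt among them, 13 were higher and 5 lower, and of 32 iron and heme genes 10 and 6, but 3 and 4 within cohort 2. Pericentral hepatocyte genes were 4 higher and 4 lower of 22 (1 and 5 within cohort 2). Periportal genes were 8 higher and 5 lower of 22, and between 5 and 8 and between 3 and 5 with single mice left out, where A/J replicates 3 and 5 moved them.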
